A study of Medicago truncatula with 14 samples.

Results

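ERN1, ERN2, VPY and ENOD11 are 4 genes of the legume Medicago truncatula that act or are expressed when rhizobia enter the root. Peaks from chromatin immunoprecipitation followed by sequencing (ChIP-seq) were collected around them by position alone, from 30 kb below to 30 kb above ERN1, ERN2 and VPY and in a fixed window of 65.0 kb around ENOD11. These windows held 101 of the 213590 peaks in 7 lists, with 31 peaks at ERN1, 13 at ERN2, 29 at VPY and 28 at ENOD11. The NIN lists gave 59 of them and the LSH1 lists 42. The material was transformed (hairy) roots of ecotype jemalong, cultivar Jester, 3 weeks old, on Fahraeus medium with 0.5 mM NH4NO3 and without a symbiont. The first group of roots expressed NIN fused to GFP (3 immunoprecipitations with 3 controls) and the second LSH1 fused to GFP (4 immunoprecipitations with 4 controls). A Lotus japonicus ubiquitin promoter drove both fusions, so the proteins were made outside their own cells and stages. The labels list the controls under the construct of the immunoprecipitations, while the protocol also names roots with nuclear GFP as a control, so the origin of the control DNA is not settled. Whole root tissue was used, so that a weak signal in many cells and a strong one in few cells cannot be told apart.

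NIN is an RWP-RK transcription factor needed for infection and for nodule formation, and LSH1 belongs to the ALOG family of transcriptional regulators. During infection the plant builds a tube, the infection thread, that leads the bacteria through root hairs into the cortex. ERN1 and ERN2 are related AP2/ERF transcription factors of this step, known to bind and activate the ENOD11 promoter. VPY (vapyrin) is a protein with ankyrin repeats that infection threads need in order to grow, and that arbuscular mycorrhizal fungi also need in the root. ENOD11 encodes a proline-rich cell wall protein and serves as a marker of early infection.

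Each list holds the peaks called from 1 immunoprecipitation against its control. List length was 14021, 28825 and 84178 peaks in NIN replicates 1 to 3, and 25127, 21902, 18750 and 20787 peaks in LSH1 replicates 1 to 4. NIN replicate 3 stands apart, with 12.3% of the chromosome length covered, against 0.947 and 2.14% in the other NIN lists and 1.59 to 2.41% in the LSH1 lists. Peak numbers are therefore also given per 10000 peaks of the list, called peak density here, and the main results are also given without NIN replicate 3. The lists carry no heights or p-values. The running number of a peak over the length of its list is called its place, in percent, with low values first; the measure behind the order is not named. The furthest peaks inside the windows lay at 27.6 kb (ERN1), 28.3 kb (ERN2), 29.7 kb (VPY) and 30.3 kb (ENOD11), and the nearest outside at 32.6, 32.5, 32.6 and 34.6 kb in the same order. A missing peak means that none passed the cutoff, not that the protein was absent.

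**Figure D1:**
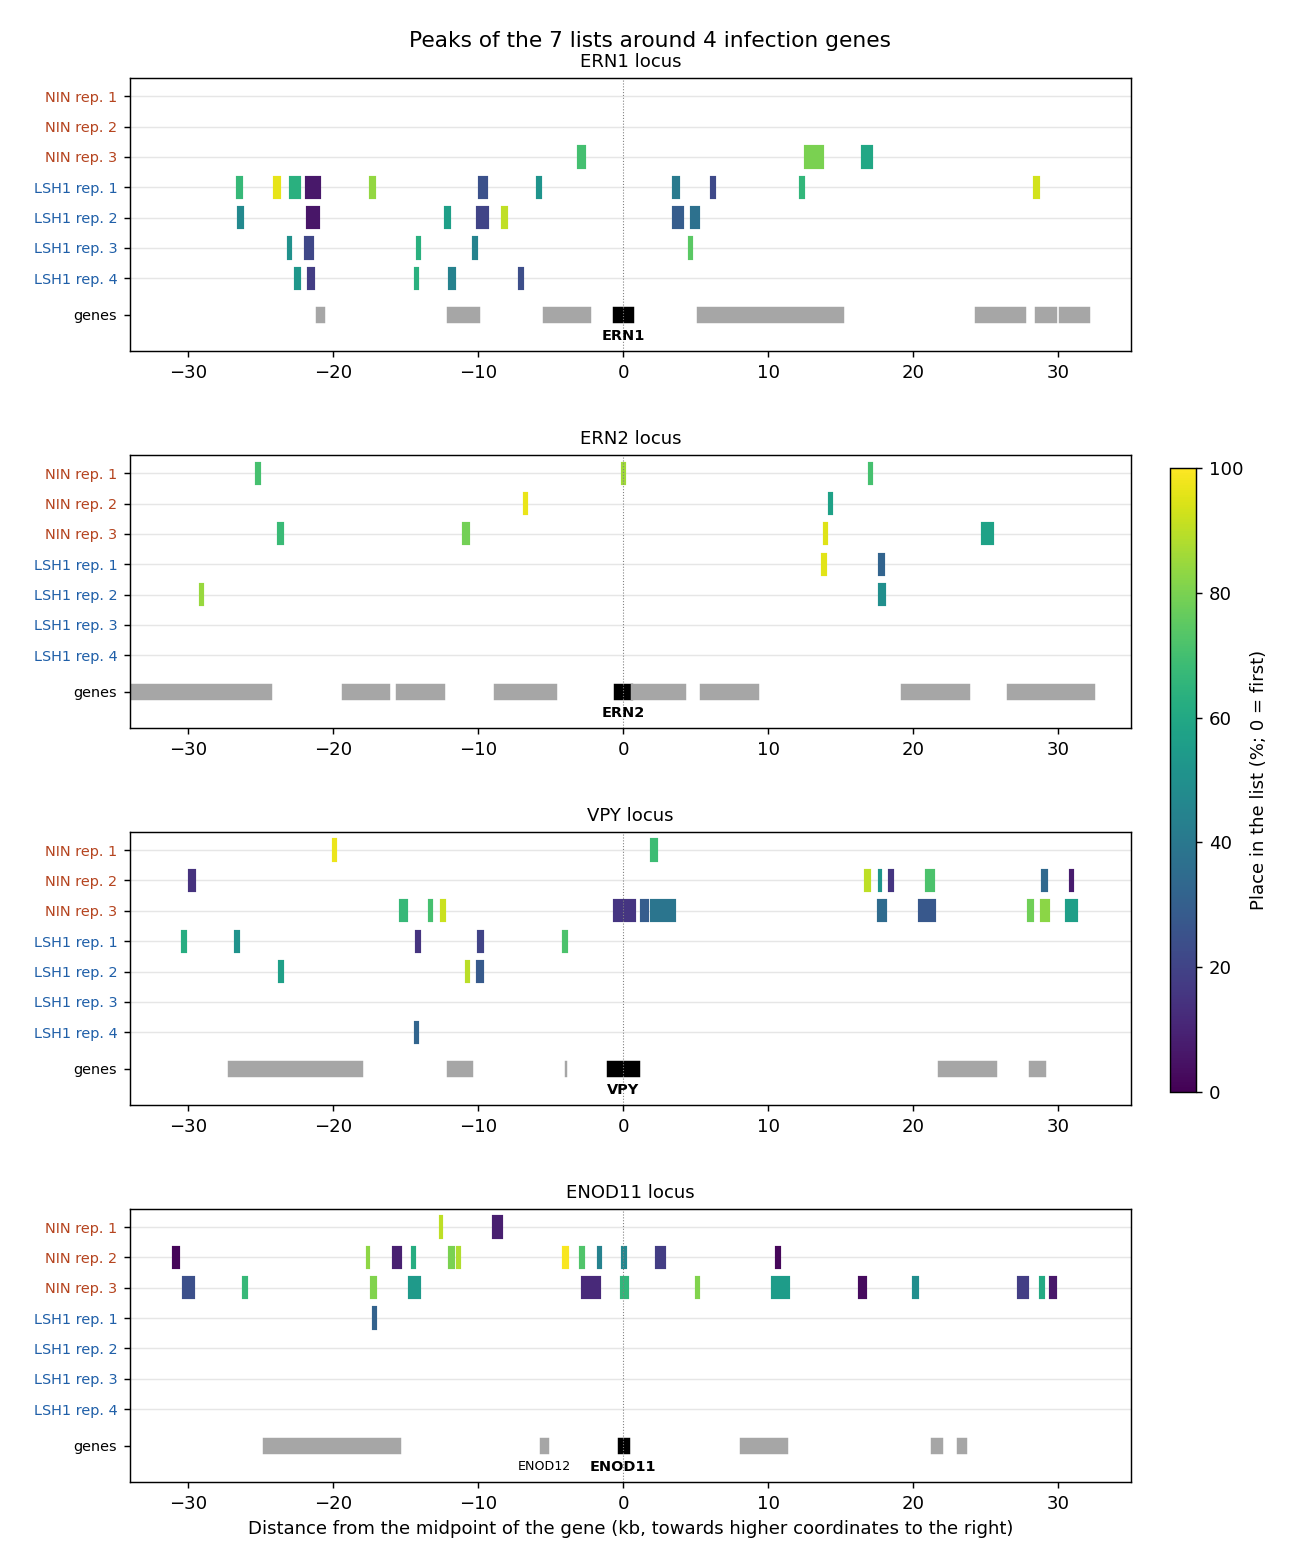
Peaks of the 7 lists in the 4 windows, drawn as bars by distance from the midpoint of the gene (kb) and coloured by place in the list (%), with NIN lists above LSH1 lists and the annotated genes at the bottom of each panel. The ERN1 panel holds 28 LSH1 and 3 NIN peaks, while the ENOD11 panel holds 27 NIN peaks and 1 LSH1 peak.

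ERN1 (LOC11437275, chromosome 7) lay among LSH1 peaks and had few NIN peaks. NIN replicates 1, 2 and 3 had 0, 0 and 3 peaks in the window, and LSH1 replicates 1 to 4 had 11, 7, 5 and 5. Every LSH1 list was higher than every NIN list, and all NIN peaks came from the longest list. Peak density averaged 0.119 ± 0.206 for NIN (SD, n = 3) and 3.16 ± 0.875 for LSH1 (SD, n = 4), a difference of -3.04 (two-sided exact permutation test over 35 splits of the lists, p = 0.0286, the smallest possible; adjusted p = 0.0816 by Benjamini-Hochberg over 31728 coding genes). The difference did not pass the adjusted threshold of 0.05, which 0 of the 31728 coding genes (0%) passed. In this test 11110 coding genes (35.0%) had an unadjusted p under 0.05. All of them had the smallest possible p and so the same adjusted p as ERN1. With this share of genes, 0.0816 was the lowest adjusted p within reach of any gene, whatever its own peaks. Missing the threshold thus does not show that the proteins were alike at ERN1. Lists that did not overlap in the same direction, with NIN below LSH1, were found at 28.9% of coding genes. The median coding gene had a density of 1.25 for NIN and 1.58 for LSH1, and 8.12% of coding genes had a difference as low as that of ERN1 (9.85% on chromosome 7). Without NIN replicate 3 the NIN density was 0 and the difference -3.16.

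The LSH1 peaks of ERN1 lay on both sides of the gene and not in it. The nearest lay 2747, 2761, 3845 and 6205 bp away in LSH1 replicates 1 to 4, and 0 of the 28 overlapped the gene. Such distances were common, since 44.8, 42.0, 41.7 and 52.2% of coding genes had a peak as near in these lists. On the lower-coordinate side lay 21 of them and on the upper side 7. Strand is not given here, so the sides are not named as promoter or terminator. The 28 peaks merged into 17 regions, of which 8 held peaks of at least 2 LSH1 lists and are called recurring. The median coding gene had 2 recurring LSH1 regions in such a window, and 8.09% of coding genes had at least 8. Leaving out LSH1 replicate 1 lowered the number to 4, and leaving out replicate 2 lowered it to 3.

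The region of ERN1 that recurred most lay on chromosome 7 at 40015810 to 40016798, 20246 bp from the gene, in 4 of 4 LSH1 lists. Its place was 6.28, 5.76, 21.2 and 17.8% in replicates 1 to 4, in the early part of each list. It overlapped the coding gene LOC11437552, for which the gene table gives no product. A region in all LSH1 lists stood within 30 kb of 48.2% of coding genes. Next to it, the region at 40014604 to 40015414 was in 3 lists, with places of 63.6% in replicate 1, 50.1% in replicate 3 and 52.9% in replicate 4.

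The recurring regions nearest to ERN1 stood later in the lists. The region at 40041144 to 40041808, 2747 bp above the gene, had places of 40.8% in replicate 1 and 29.2% in replicate 2. The one at 40042242 to 40042933, 3845 bp above it, had 37.0% in replicate 2 and 74.4% in replicate 3. On the other side the nearest recurring region (40027646 to 40028394) lay 8650 bp from the gene, with 24.8% in replicate 1 and 19.9% in replicate 2. LOC11438608, the second coding gene below ERN1, had 3 recurring LSH1 regions within 2000 bp, and LOC11436838, the next one above, had 2.

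NIN replicate 3 had its nearest peak 1977 bp below ERN1, on chromosome 7 at 40034634 to 40035067, with a place of 70.0%. It overlapped the neighbouring coding gene LOC11441048. The other NIN peaks of that list lay 11839 and 15765 bp above ERN1, with places of 80.0 and 59.7%. NIN replicates 1 and 2 had no peak over 73.6 and 71.9 kb around the gene. Stretches as long as these held 37.2% of coding genes in replicate 1 and 26.8% in replicate 2, so that the lack of NIN peaks was common among genes.

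ERN2 (LOC11417172, chromosome 6), the close relative of ERN1, had few peaks of either protein. NIN replicates 1 to 3 had 3, 2 and 4 peaks in the window, and LSH1 replicates 1 to 4 had 2, 2, 0 and 0. The groups overlapped once scaled to list length: peak density was 2.14, 0.694 and 0.475 in the NIN lists and 0.796, 0.913, 0 and 0 in the LSH1 lists. The means were 1.10 ± 0.904 (SD, n = 3) for NIN and 0.427 ± 0.496 (SD, n = 4) for LSH1, a difference of 0.676 within the spread between lists (exact permutation p = 0.286, adjusted p = 0.385). The difference was 0.157 without NIN replicate 1, 0.989 without NIN replicate 3, and -0.632 with a window of 50 kb to each side, where it had turned round.

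A single NIN peak lay in ERN2, on chromosome 6 at 10504880 to 10505056, found in NIN replicate 1 with a place of 85.8%. NIN replicates 2 and 3 had their nearest peaks at 6001 and 10007 bp. Over this window 0 of 9 NIN regions recurred in a second NIN list, although each list had peaks there. Few NIN regions recurred anywhere, with 17228 of 106019 (16.2%) over the whole genome. A recurring NIN region stood within 30 kb of 76.8% of coding genes. LSH1 had 1 recurring region, at 10522571 to 10522967, 16999 bp above ERN2 and 1110 bp from the coding gene LOC11413020, with places of 31.7% in replicate 1 and 49.5% in replicate 2. It was lost when either of these lists was left out. A recurring LSH1 region stood within 30 kb of 80.1% of coding genes.

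VPY (LOC25495843) lay on the same chromosome, 231.85 kb below ERN2. NIN replicates 1 to 3 had 2, 7 and 11 peaks in its window and LSH1 replicates 1 to 4 had 5, 3, 0 and 1. Scaled to the lists, NIN had 1.43, 2.43 and 1.31 and LSH1 had 1.99, 1.37, 0 and 0.481, so that the groups overlapped. The means were 1.72 ± 0.616 for NIN (SD, n = 3) and 0.960 ± 0.891 for LSH1 (SD, n = 4), and the difference of 0.760 lay within the spread (exact permutation p = 0.257, adjusted p = 0.355). Without NIN replicate 3 it was 0.967. With 10 kb to each side it was -0.0707 and so turned round.

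NIN and LSH1 peaks lay mostly on different sides of VPY. Of 20 NIN peaks, 14 lay above the gene, 1 in it and 5 below, while all 9 LSH1 peaks lay below. Without NIN replicate 3, 7 of 9 NIN peaks lay above and 2 below. By list, 1, 6 and 7 NIN peaks lay above in replicates 1 to 3, and 1, 1 and 3 below. The LSH1 peaks below numbered 5, 3, 0 and 1 in replicates 1 to 4. The split by side thus rested on few lists, was not compared with other coding genes and was not tested. The nearest NIN peak was at 766 bp in replicate 1, at 15541 bp in replicate 2 and in the gene in replicate 3, where 40.7% of coding genes had a peak of that list in them. The nearest LSH1 peaks were at 2788, 8520, 49454 and 13001 bp in replicates 1 to 4, so that the proteins overlapped in this distance. The peak in the gene, on chromosome 6 at 10270720 to 10272157, was 1438 bp wide and had a place of 15.3%, and it was found in NIN replicate 3 only. That list continued with peaks at 10272619 to 10273078 (29.0%) and 10273280 to 10274960 (39.0%).

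The last of these overlapped a peak of NIN replicate 1 (10273255 to 10273726, place 68.6%), which made a recurring region 766 bp above VPY. NIN replicate 2 had no peak there. NIN had 5 recurring regions in the window, against a median of 2, and 15.0% of coding genes had as many. The other 4 lay 16457 to 29368 bp above VPY and were shared by replicates 2 and 3. The number fell to 1 without NIN replicate 2 and to 0 without NIN replicate 3. The coding gene LOC25495846 had 2 of these regions within 2000 bp and the long non-coding RNA LOC120580879 had 1.

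LSH1 had 2 recurring regions below VPY, at 10257043 to 10257341 with places of 15.2% in replicate 1 and 32.0% in replicate 4, and at 10261294 to 10261733 with 20.0% in replicate 1 and 28.0% in replicate 2. They lay 12912 and 8520 bp from VPY and within 2000 bp of the coding gene LOC25495841. Of these, 0 remained without LSH1 replicate 1, and 1 without LSH1 replicate 2 or without replicate 4.

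Coding genes of chromosome 6, which holds ERN2 and VPY, had a higher NIN and a lower LSH1 density than coding genes in general. Over its 2454 coding genes the median density was 1.72 for NIN and 0.666 for LSH1, with a median difference of 1.01. The differences of ERN2 (0.676) and VPY (0.760) were below this median, and 61.2 and 58.5% of the coding genes on the chromosome had a difference as high.

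ENOD11 (chromosome 3) had NIN peaks on both sides and in the gene, and nearly no LSH1 peaks. NIN replicates 1 to 3 had 2, 12 and 13 peaks in the window, and LSH1 replicates 1 to 4 had 1, 0, 0 and 0. Every NIN list was higher than every LSH1 list, also per 10000 peaks, with 1.43, 4.16 and 1.54 in the NIN lists and 0.398, 0, 0 and 0 in the LSH1 lists. The means were 2.38 ± 1.55 (SD, n = 3) for NIN and 0.0995 ± 0.199 (SD, n = 4) for LSH1, a difference of 2.28 (exact permutation p = 0.0286, the smallest possible; adjusted p = 0.0816). Such lists without overlap, with NIN above LSH1, were found at 17.9% of coding genes, and 5.96% of coding genes had a difference as high. On chromosome 3 this share was 3.43%.

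The size of the ENOD11 difference rested most on NIN replicate 2. It was 1.39 without this list and 2.70 without NIN replicate 3. Only 4.16% of coding genes had 12 or more peaks of NIN replicate 2 within their window, whereas 56.9% had 2 or more of replicate 1 and 37.3% had 13 or more of replicate 3. The window of ENOD11 is fixed and reaches slightly beyond 30 kb. With 30 kb to each side, as for the other genes, replicate 2 had 11 peaks, which 5.82% of coding genes reached, and the difference was 2.16 (exact permutation p = 0.0286, adjusted p = 0.0816). The list of replicate 3 covered 11.4% of the window, close to its 12.3% of all chromosomes. NIN replicate 2 covered 6.26% of the window, against 2.14% of all chromosomes.

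**Figure D2:**
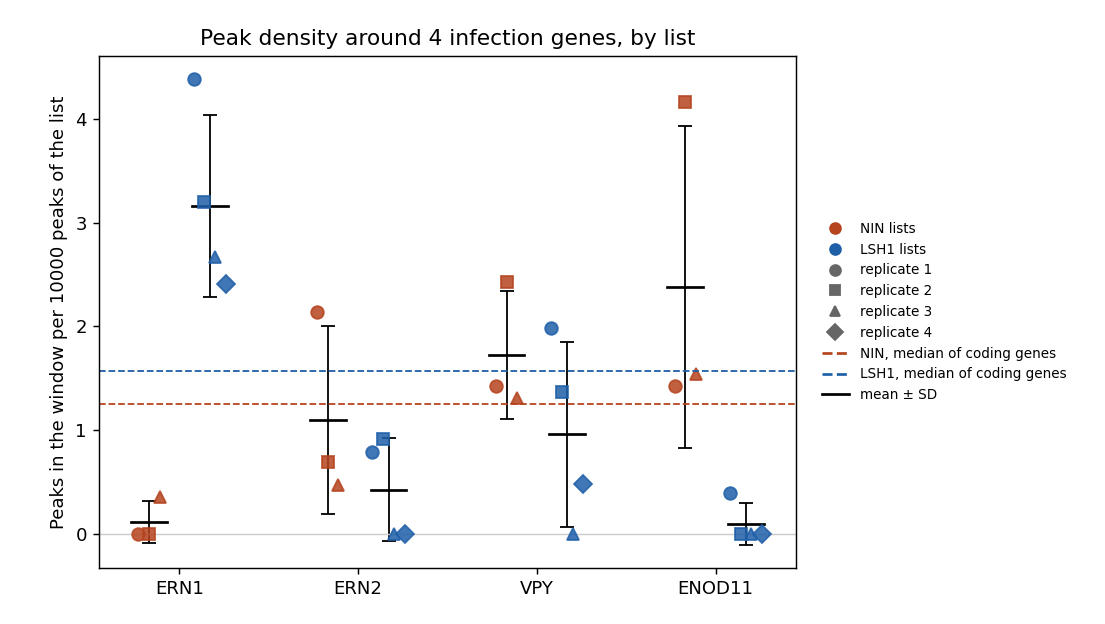
Peaks in each window per 10000 peaks of the list, with 1 symbol per list, black lines for mean ± SD (n = 3 NIN and 4 LSH1 lists) and dashed lines for the median of all coding genes. The NIN and LSH1 lists do not overlap at ERN1, where NIN is lower, and at ENOD11, where NIN is higher, and they overlap at ERN2 and VPY.

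Close to ENOD11, NIN replicates 2 and 3 overlapped in 2 regions. A recurring region at 4701821 to 4702295 overlapped the gene, with places of 46.4% in replicate 2 and 66.0% in replicate 3. A second at 4698951 to 4700434, 1127 bp below the gene, joined 2 peaks of replicate 2 (72.4 and 44.1%) with 1 of replicate 3 (11.4%). A further peak of replicate 2 at 4704206 to 4704852, 1883 bp above the gene (place 17.6%), overlapped no other NIN list. NIN replicate 1 had a peak in neither region, and its nearest peak lay 7943 bp below the gene at 4692957 to 4693618, with a place of 8.35%. A recurring NIN region within 2000 bp was found at 19.1% of coding genes.

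Further out, NIN recurred 9859 bp above ENOD11 at 4712182 to 4713373, where replicate 2 had a place of 1.61% and replicate 3 of 54.9%. This region overlapped the annotated pseudogene LOC11424882. Another at 4687208 to 4687945 lay 13616 bp below ENOD11, with 62.4% in replicate 2 and 54.0% in replicate 3, and 660 bp from the coding gene LOC25490357. Among the earliest peaks of the window were 1 of NIN replicate 2 at the outer edge (place 1.53%, 30259 bp from ENOD11) and 1 of NIN replicate 3 (4718159 to 4718676, place 2.84%, 15836 bp above the gene). Neither overlapped a peak of another NIN list. All 4 recurring regions were lost without NIN replicate 2 or without NIN replicate 3, and 0 were in all NIN lists. A NIN region of all lists stood within 2000 bp of 2.69% and within 30 kb of 21.2% of coding genes. The median coding gene had 2 recurring NIN regions, and 23.4% had at least 4.

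The window also holds ENOD12 (LOC25490361), another early nodulin of the cell wall, 4787 bp below ENOD11. ENOD12 had 1 NIN peak within 2000 bp, in replicate 2 (4697796 to 4698151, place 99.1%), and its nearest recurring NIN region lay at 2177 bp. Its own 30 kb window shares most peaks with that of ENOD11, with 2, 12 and 11 in the NIN lists and 1, 0, 0 and 0 in the LSH1 lists, and is not a separate case.

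The single LSH1 peak of the ENOD11 window lay 16643 bp below the gene at 4684698 to 4684918, in replicate 1 with a place of 31.2%. The nearest peaks of LSH1 replicates 2, 3 and 4 were 77299, 80628 and 80627 bp away. Stretches without an LSH1 peak around ENOD11 measured 88.7, 316, 173 and 287 kb in replicates 1 to 4, while the medians over coding genes were 25.9, 30.6, 36.3 and 34.3 kb. Stretches as long were found at 17.3, 2.81, 9.75 and 7.52% of coding genes.

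**Figure D3:**
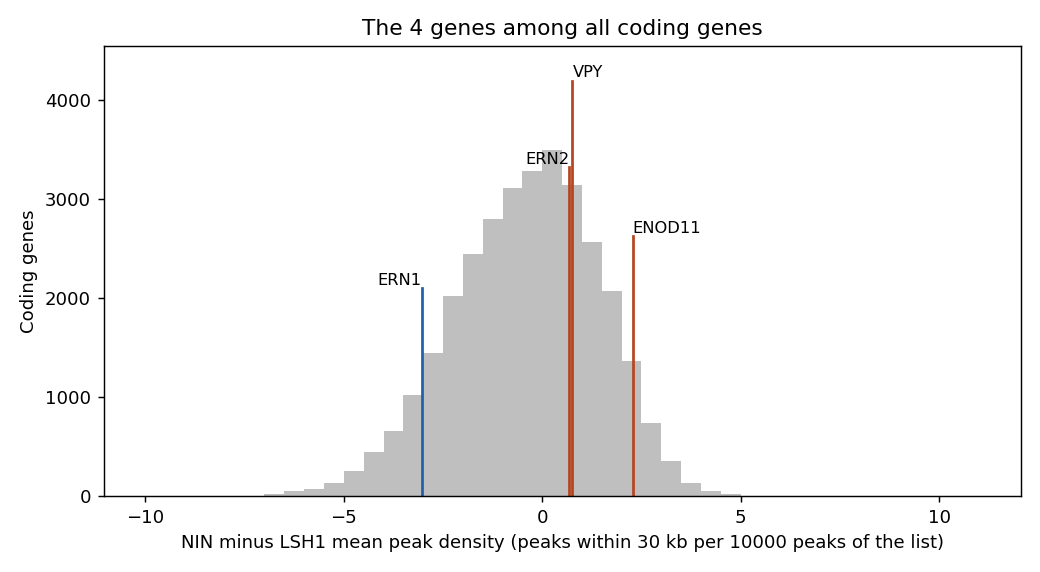
Number of coding genes by the difference in mean peak density, NIN minus LSH1, in steps of 0.5 peaks per 10000, with lines at the 4 genes. ERN1 lies at -3.04 and ENOD11 at 2.28, towards opposite ends of the distribution, while ERN2 (0.676) and VPY (0.760) lie near its centre.

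Across the 4 genes, all peaks within 2000 bp of the gene were NIN peaks, but this rests on the cutoff. LSH1 peaks lay just beyond it, at 2747 and 2761 bp from ERN1 and 2788 bp from VPY. The NIN peak of ERN1 lay just inside it, at 1977 bp. Within 2000 bp lay 1 NIN peak at ERN1, 1 at ERN2, 4 at VPY and 5 at ENOD11, and 0 LSH1 peaks at any of them. In the single LSH1 lists, 40.4, 37.8, 32.3 and 35% of coding genes had a peak within this distance in replicates 1 to 4. The shares for NIN were 20.8, 28.9 and 66.1% in replicates 1 to 3. Of the 11 NIN peaks, 6 came from replicate 3, 3 from replicate 2 and 2 from replicate 1. Without replicate 3 there were 5, with 0 at ERN1, 1 at ERN2, 1 at VPY and 3 at ENOD11. These numbers were not tested.

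NIN and LSH1 peaks overlapped at 2 positions, each with 1 list of either protein. At ERN2 a peak of NIN replicate 3 and one of LSH1 replicate 1 shared 107 bp, 13246 bp above the gene, with places of 95.1 and 95.7%. At ENOD11 the LSH1 peak described above shared 197 bp with a peak of NIN replicate 3 at 4684559 to 4684894 (place 81.1%). Both rested on NIN replicate 3, and without it there were 0. Of the recurring regions, 0 of 9 NIN regions overlapped an LSH1 peak, and on all chromosomes 12.7% of recurring NIN regions did. Likewise 0 of 11 LSH1 regions overlapped a NIN peak, against 18.9% on all chromosomes, or 6.3% when NIN replicate 3 was left out. With so few regions these counts were not tested.

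The gap between the best and the worst place of a region had a median of 44.3 percentage points over the 9 NIN regions (8.40 to 61.1) and 13.5 over the 11 LSH1 regions (0.331 to 37.4). Over all chromosomes the medians were 32.5 for NIN and 31.3 for LSH1, but these pool regions found in different numbers of lists. In NIN regions of exactly 2 lists the median was 29.9 for replicates 1 and 3 and 30.2 for replicates 2 and 3. In LSH1 regions of exactly 2 lists it was 22.4 to 25.4, depending on the pair of lists, and so lower than for NIN. All 9 NIN regions include NIN replicate 3, whose list is much longer than the others, and a place is relative to the list. NIN regions of replicates 1 and 2 alone had a median of 27.3 over all chromosomes. Whether list length bears on the gap was not tested. Peaks that overlapped another list of the same protein had a median place of 52.0% for NIN (n = 19) and 37.0% for LSH1 (n = 25). Those that did not had 68.9% for NIN (n = 40) and 65.8% for LSH1 (n = 17). These are descriptions over regions and peaks, which are not replicates, and were not tested.

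**Figure D4:**
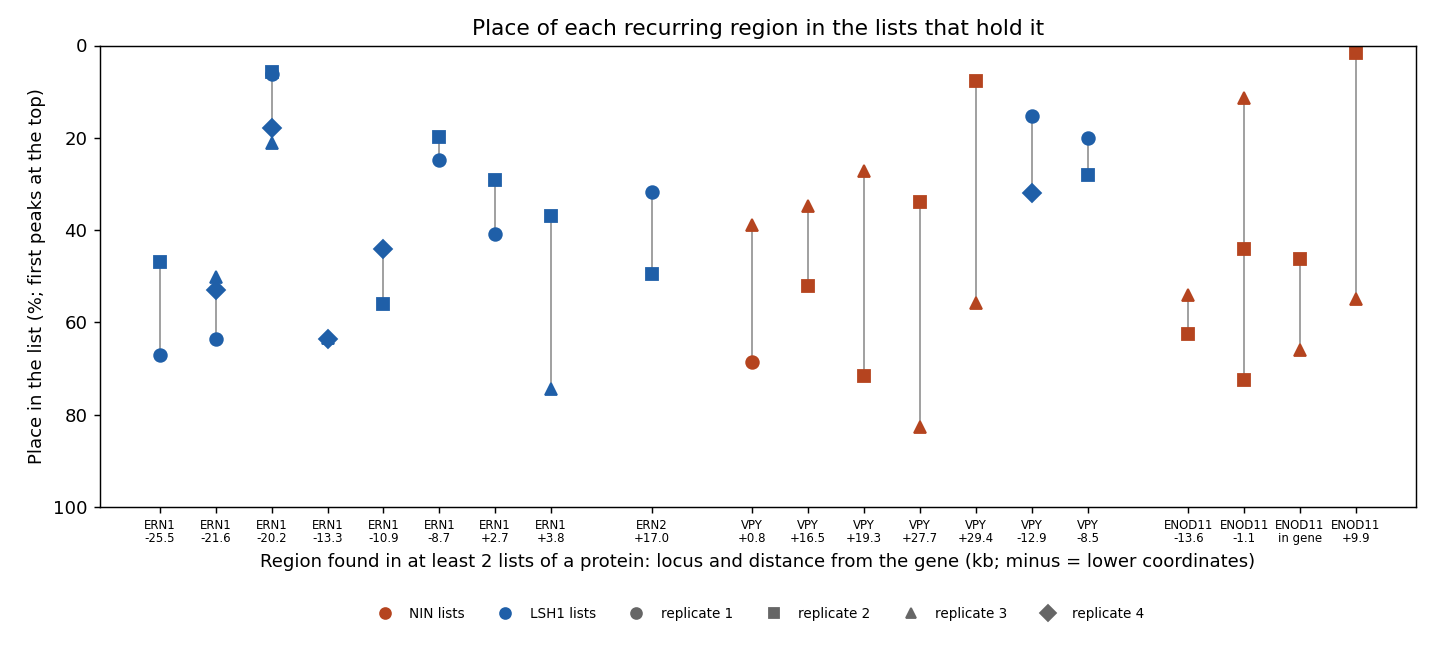
Place (%) of each region found in at least 2 lists of a protein, with 1 symbol per peak and a line from the best to the worst place, ordered by locus and position. The ERN1 region at 20.2 kb below the gene is the one with symbols of all 4 LSH1 lists, and the lines of the NIN regions are mostly longer than those of the LSH1 regions.

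A wider list of 41 names covers Nod factor signalling, infection, nodule identity and the control of nodule number. Of these, 16 were matched in the gene table, 12 of them other than these 4. The names were chosen with earlier results of these data known, so the counts below describe these genes only and were not tested. Among the 12, 0 had a recurring NIN region within 2000 bp (19.1% of coding genes) and 6 had a recurring LSH1 region (30.7% of coding genes). These 6 were the kinase gene DMI3, its partner IPD3, the GRAS factor NSP1, the nodule identity genes NOOT1 and NOOT2, and ENOD20, whose match by symbol is in doubt. Peak density was higher for NIN at 4 of the 12 and higher for LSH1 at 8. Among all coding genes, 43.6% had a higher density for NIN. The median difference was -0.348 over the 12, against -0.290 over all coding genes. Lists without overlap were found with NIN below LSH1 at 3 of the 12, NFP (a Nod factor receptor), NSP1 and NOOT1, where 28.9% of all coding genes were of this kind. With NIN above LSH1 there was 1 of the 12, ENOD12 beside ENOD11, against 17.9% of all coding genes.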

How the data were processed

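Per the labels, each of 14 ChIP-seq libraries of transformed roots belongs to 1 construct, 1 role and 1 replicate number, and whether replicates were grown separately is not stated, so p-values measure the spread between lists, which may be technical. The authors deposited 7 peak lists with a sequence name, start, end and running number per peak. Bowtie2, Picard, MACS2 and ChIPseeker are named in the submitters' processing notes, and the list names in the labels give a q cutoff of 0.05. Peaks were called per replicate against its control. For read depth, tool versions and genome build, nothing is given in the sources used here.

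Gene positions were taken from RefSeq (assembly MtrunA17r5.0-ANR), in a table without strand, exons or sequence (39590 genes, 31728 coding genes on 8 chromosomes). Recurring LSH1 regions had their midpoint within 500 bp of a coding gene end in 28.0% of cases, and in 16.8 and 16.9% with genes moved by 5000 bp up or down, so both coordinate systems were used together. Peak positions are those of the lists, counted from 1. A distance is the difference between the near end of the gene and the near end of the peak. Peaks of a protein that shared at least 1 bp were merged, and regions with at least 2 lists called recurring.

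Peak density was compared for every coding gene with a two-sided exact permutation test over 35 splits of the 7 lists, with Benjamini-Hochberg adjustment over all coding genes (Python 3.11.15, numpy 2.4.6, pandas 2.3.3), after tests on simulated lists. Lists that do not overlap can still miss the smallest p, since other splits may differ more in mean. The named genes were the 4 loci, genes with a recurring region within 2000 bp in their windows, and a list of infection and signalling genes matched by symbol or synonym. The loci, members and lists were chosen with earlier results of these data known. Alternatives were other windows, covered base pairs, raw numbers, the first 5000 peaks, the first 50% of each list, peaks of up to 2000 bp, stricter overlap, peaks in all lists, a replicate block and each list left out. A planned search for motifs in promoters was not run. The genes of NIN and LSH1 themselves were not analysed here.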

Additional observations from a re-analysis of the deposited data

Results flagged for a closer look

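At ENOD11, LSH1 replicate 1 stood apart from the other LSH1 lists in each of the measures compared. Its peak density was 0.398 per 10000 peaks while the other lists had 0, its peaks covered 0.340% of the window while the others covered 0%, and its nearest peak lay 16643 bp from the gene, against 77299 to 80628 bp in the others. These values come from the same peak. For density and coverage the mark was fixed once a single list had a peak and the others had 0, so the usual rate of about 1 in 20 by chance does not apply to them. Among 12 sets of LSH1 values examined (3 measures at 4 genes), 3 were marked, all at ENOD11. Sets of 3 NIN lists were not examined.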

How the results depend on the processing

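The differences in peak density kept their direction at ERN1 and ENOD11 under every alternative that was run. The adjusted p ran from 0.0656 to 0.405 at both genes, and none passed the threshold in any setting (exact permutation). With a list left out or with the replicate block, p could not fall below 0.0667, so no gene could pass there. With each list left out in turn the difference ran from -3.29 to -2.64 at ERN1, from 0.157 to 0.989 at ERN2, from 0.406 to 1.10 at VPY and from 1.39 to 2.75 at ENOD11. At ERN2 it was -0.632 with 50 kb to each side and 0 with the first 5000 peaks of each list, where neither protein had a peak. At VPY it was -0.0707 with 10 kb to each side; the cause was not tested. At ENOD11 a window of 30 kb to each side, chosen after seeing the data, gave 2.16. The number of coding genes past the adjusted threshold was 0 in all settings.

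Recurring regions depended on the rule. With peaks in all lists of a protein, ERN1 kept 1 LSH1 region and the other counts were 0. With the first 5000 peaks of each list, ERN1 again had 1 LSH1 region and the others 0. With the first 50% of each list, NIN had 0 regions at VPY and 1 at ENOD11, and LSH1 had 3 at ERN1. Leaving out each list gave 0 to 4 NIN regions at VPY, 0 to 4 at ENOD11, and 3 to 6 LSH1 regions at ERN1, 0 to 1 at ERN2 and 0 to 2 at VPY. Where peaks had to share 50% of the smaller one, there were 6 LSH1 regions at ERN1 in place of 8. Coding genes with a recurring NIN region within 2000 bp numbered 6071, against 10251 within 5000 bp, and 1242 to 4300 with a NIN list left out; for LSH1 they were 9745 and 7334 to 8493.

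Replicate numbers shared by NIN and LSH1 gave no clear pairing of the lists. Deviations from the group means over coding genes correlated by 0.0183, 0.00899 and -0.0842 for numbers 1, 2 and 3. NIN replicate 1 correlated best with its own number, and NIN replicates 2 and 3 with another number. Such low correlations cannot settle whether lists of the same number were processed together. With the replicate block the differences were -3.29 at ERN1, 0.533 at ERN2, 0.601 at VPY and 2.25 at ENOD11, and the smallest p that 3 pairs allow is 0.25. Leaving out a NIN list allows no p below 0.0667 and leaving out an LSH1 list none below 0.1. Read depth per list is unknown, so peaks missing from the shorter lists cannot be read as absent.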

Other observations

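LSH1 peaks were missing over a long stretch above VPY. The next LSH1 peak above the gene was 138.6, 121.6, 98.7 and 178.5 kb away in LSH1 replicates 1 to 4, so that the side which held 14 of the 20 NIN peaks of the window held 0 of the 9 LSH1 peaks. The whole stretch without an LSH1 peak around VPY measured 144, 132, 150 and 194 kb in these lists, and 9.56 to 12.1% of coding genes lay in stretches as long. Around ERN2 such stretches were 99.2, 46.6, 103 and 73.6 kb, and 15.2, 35.9, 18.4 and 28.3% of coding genes lay in stretches as long, while the medians over coding genes were 25.9 to 36.3 kb. These stretches were noticed in the data and not tested, and the median LSH1 density over coding genes of chromosome 6 was 0.666, against 1.58 over all coding genes.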
